A study of Caenorhabditis elegans with 22 samples.

Results

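The microRNAs cel-mir-87 and cel-mir-233 form a small seed family of the nematode Caenorhabditis elegans. They were chosen by name, as the rows cel-mir-87 and cel-mir-233 of a table of 250 microRNA hairpins, so the family is 2 of 250 hairpins, and both are among the 141 hairpins with enough counts to be tested. The data are small RNA libraries of whole hermaphrodites of the wild-type strain N2. Worms labelled with rotenone at 0.039441 µg/ml, which blocks mitochondrial respiration at complex I, were compared with worms labelled with 2-deoxyglucose, a sugar analogue that stops glycolysis (no dose in the labels). The 22 libraries fall into 8 groups, which are rotenone at 1, 5, 10 and 20 days of age and 2-deoxyglucose at the same 4 ages, with 2 libraries in each day 20 group and 3 in every other group. The title of the series speaks of DMSO where the sample labels speak of 2-deoxyglucose, and the sample labels are followed here. Untreated worms were not analysed here, so neither compound can be given as the source of a difference between them. The labels do not say whether libraries of a group stem from separate cultures, and the p-values then cover only the spread among the libraries, which may be technical.

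A microRNA is a short RNA that guides an Argonaute protein to messenger RNAs, mostly through its seed, the bases near its 5′ end, and lowers their translation or stability. MicroRNAs that share a seed can recognise overlapping sets of messages, so changes in one member can be offset or reinforced by another. In C. elegans, mir-233 is known for a role in the unfolded protein response of the endoplasmic reticulum during bacterial infection, where it represses the calcium pump gene sca-1. In Drosophila, miR-87 is known for its part in the regrowth of neuronal dendrites. That the C. elegans hairpins belong to a single seed family was taken from their published classification and was not checked here.

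The hairpins lie apart in the genome and inside different host genes. In the WBcel235 assembly with Ensembl gene models, cel-mir-87 (WBGene00003315) spans 94 bases of chromosome V, from 12038688 to 12038781 on the minus strand. It sits in an intron of the protein-coding gene kup-1, which is transcribed from the same strand, and the nearest kup-1 exons are 1546 and 1995 bases away. The non-coding RNA gene F10C2.11 overlaps it on the opposite strand. cel-mir-233 (WBGene00003326) spans 98 bases of chromosome X, from 12078587 to 12078684, also on the minus strand. It sits in an intron of the protein-coding gene W03G11.4, again on the same strand, with exons only 70 and 125 bases away. No other annotated microRNA lies within 10000 bases of either hairpin.

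Both members were detected in every library at middling abundance. mir-87 collected between 117 and 482 counts per library and mir-233 between 77 and 284, out of totals of 664900 to 2233973 counts per library. Expressed as CPM (counts set to the same total in every library, after TMM adjustment of library sizes), mir-87 had a median of 162 CPM and a range of 128 to 238 CPM, and mir-233 a median of 125 CPM and a range of 97.0 to 166 CPM. By mean CPM they stood at positions 75 and 86 of the 141 hairpins tested. Counting error alone was 4.55% to 9.25% of a library's value for mir-87 and 5.93% to 11.4% for mir-233. The biological coefficient of variation between libraries of a group was estimated at 10.3% for mir-87 and 10.1% for mir-233, with 14.3% as the common value over all hairpins. These are whole-worm values, in which fewer cells of a type and less RNA per cell cannot be told apart. The deposited value of a hairpin has no separate entries for its mature arms.

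The mir-87 level was highest at day 1 under both compounds and at day 5 under 2-deoxyglucose, and lower in the remaining groups. In rotenone worms, mir-87 was at 186, 197 and 212 CPM on day 1, at 162, 158 and 154 CPM on day 5, at 170, 147 and 161 CPM on day 10, and at 160 and 163 CPM on day 20. In 2-deoxyglucose worms it was at 221, 177 and 210 CPM on day 1, at 171, 226 and 238 CPM on day 5, at 128, 130 and 152 CPM on day 10, and at 154 and 148 CPM on day 20. All later rotenone libraries thus lay below the rotenone libraries of day 1, while the 2-deoxyglucose libraries of day 5 lay on either side of those of day 1, with 1 below and 2 above them, and those of days 10 and 20 lay below. How many of the other hairpins separate by age in this way was not counted. In the order of the group means, 2-deoxyglucose day 5 (211.5 ± 35.7 CPM, SD, n = 3), 2-deoxyglucose day 1 (202.8 ± 22.9, n = 3) and rotenone day 1 (198 ± 13.2, n = 3) came first, and the libraries of neighbours among them overlapped. A gap without overlap separated them from rotenone day 20 (161 ± 1.79, n = 2), rotenone day 10 (159 ± 11.4, n = 3) and rotenone day 5 (158 ± 3.74, n = 3), which overlapped as neighbours. The lowest groups were 2-deoxyglucose day 20 (151 ± 4.06, n = 2) and 2-deoxyglucose day 10 (137 ± 13.5, n = 3).

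The mir-233 level was similar from day 1 to day 10 and highest on day 20. In rotenone worms, mir-233 was at 128, 116 and 117 CPM on day 1, at 101, 129 and 104 CPM on day 5, at 130, 115 and 123 CPM on day 10, and at 159 and 166 CPM on day 20. In 2-deoxyglucose worms it was at 131, 99.1 and 97.0 CPM on day 1, at 128, 127 and 129 CPM on day 5, at 103, 116 and 113 CPM on day 10, and at 147 and 132 CPM on day 20. All 4 day 20 libraries lay above all 18 libraries of the younger ages in TMM-scaled CPM, by a narrow margin. The second 2-deoxyglucose day 20 library was at 132 CPM and the first 2-deoxyglucose day 1 library at 131 CPM. Their counting errors were 8.06% and 5.93%, so the order of these libraries lies within counting error. How many of the other hairpins separate by age in this way was not counted. Between days 20 and 1, 63.8% of hairpins were called in rotenone and 62.4% in 2-deoxyglucose worms. The hairpins mir-4807, mir-2220 and mir-45, named below for their likeness to mir-233, separated in the same way by wider margins. In the order of group means, rotenone day 20 (162 ± 4.48 CPM, SD, n = 2) and 2-deoxyglucose day 20 (139.8 ± 10.9, n = 2) did not overlap with each other or with the next group, 2-deoxyglucose day 5 (128 ± 1.25, n = 3). The other 6 neighbours down the order, from 2-deoxyglucose day 5 to 2-deoxyglucose day 1 (109 ± 19.1, n = 3), overlapped throughout.

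**Figure D1:**
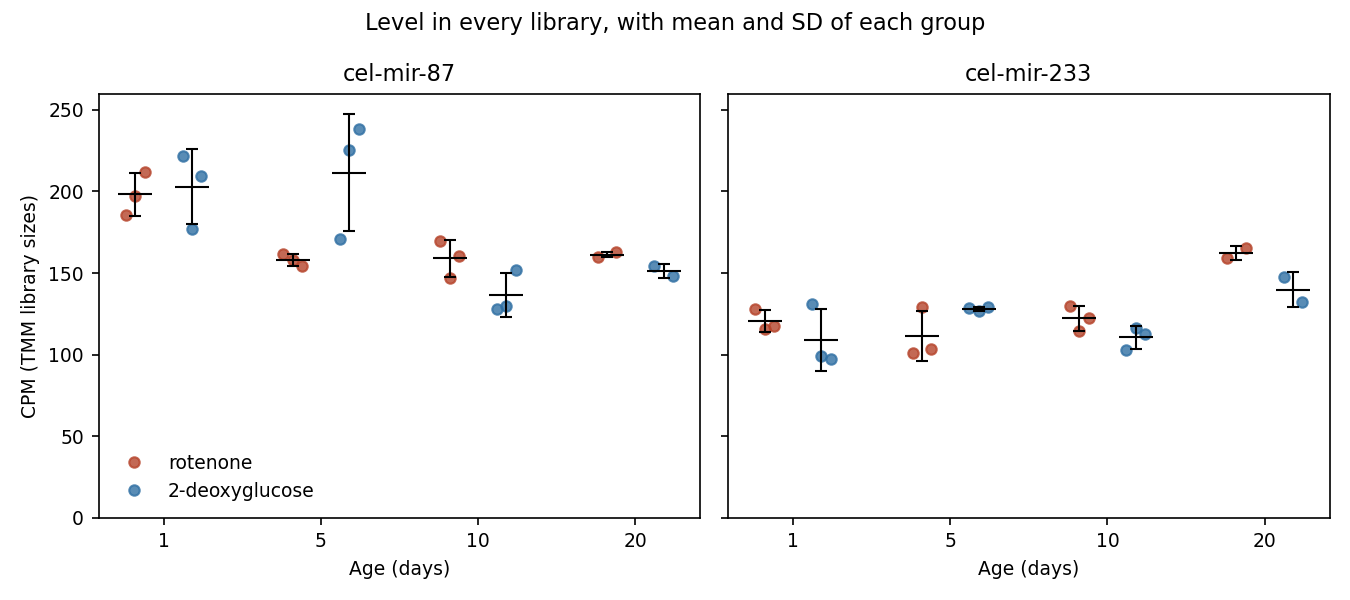
Level of cel-mir-87 (left) and cel-mir-233 (right) in each of the 22 libraries, in CPM with TMM library sizes (vertical axis, from 0), against age in days; points are libraries, horizontal bars group means and whiskers the SD, with rotenone left of 2-deoxyglucose at each age. The mir-87 points of rotenone day 5 sit between 154 and 162 CPM, below all 3 points of 2-deoxyglucose day 5. The mir-233 points of day 20 sit above all younger ones, the lowest at 132 CPM against 131 CPM for the highest younger point.

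The age comparisons ask whether the level of each microRNA changes over the life of the worm under either compound. The changes below are log2 differences of the later age minus the earlier age with their standard errors, from edgeR's quasi-likelihood test over all 141 hairpins in a single fit of the 8 groups, with Benjamini-Hochberg adjusted p-values and a call at 0.05. In 2-deoxyglucose worms, mir-87 fell by day 10: the log2 difference from day 1 was -0.57 ± 0.13 (fold 0.674, 95% interval 0.559 to 0.812, edgeR adjusted p = 6.04e-04), and all 3 day 10 libraries lay below all 3 day 1 libraries. This change kept its call in all 16 alternative analyses, with log2 differences of -0.80 to -0.38 and a highest adjusted p of 0.0187. Of all hairpins tested, 66% were called in the comparison of day 10 with day 1, so a called change was the common outcome there. Against day 5 the 2-deoxyglucose day 10 libraries were lower again, with a log2 difference of -0.62 ± 0.13 (edgeR adjusted p = 8.34e-04) and no overlap, where 31.2% of hairpins were called. Without the first or the second 2-deoxyglucose day 10 library that difference was -0.48 or -0.49, with adjusted p = 0.0638 and 0.0579.

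At day 20 the 2-deoxyglucose worms had mir-87 at a log2 difference of -0.43 ± 0.15 from day 1 (edgeR adjusted p = 0.0145, 62.4% of hairpins called). That call ended in 8 of 15 alternatives, among them DESeq2's test (-0.31, adjusted p = 0.105) and the removal of the first or the third day 1 library (-0.36 and -0.33, adjusted p = 0.0528 and 0.152) or of either day 20 library (-0.42 and -0.26, adjusted p = 0.0812 and 0.284). The level on day 5 did not differ from that on day 1 beyond its error in the same worms (0.05 ± 0.13, 95% interval -0.22 to 0.32, adjusted p = 0.787, 44.7% of hairpins called), and its sign turned with total counts in place of TMM. From day 10 to day 20 the difference was 0.14 ± 0.15 (adjusted p = 0.485), in a comparison that called 46.1% of hairpins.

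In rotenone worms, mir-87 was already lower on day 5, by a log2 difference of -0.33 ± 0.13 from day 1 (fold 0.796, 95% interval 0.663 to 0.955, edgeR adjusted p = 0.0375), with no overlap between the libraries of days 5 and 1 and 45.4% of hairpins called. On day 10 the difference from day 1 was -0.32 ± 0.13 (edgeR adjusted p = 0.0391), again without overlap and with 55.3% of hairpins called. On day 20 it was -0.30 ± 0.14 and missed the threshold (adjusted p = 0.0731, 63.8% of hairpins called), though both day 20 libraries lay below all 3 day 1 libraries. The values of days 5, 10 and 20 were close to each other, with a log2 difference of 0.01 ± 0.13 for day 10 against day 5 (adjusted p = 0.974, 34.8% of hairpins called) and of 0.02 ± 0.15 for day 20 against day 10 (adjusted p = 0.900, 41.1% of hairpins called). The sign of the day 20 minus day 10 difference turned with DESeq2's size factors.

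Both rotenone calls were lost in many alternatives. The day 5 call ended in 8 of 16 alternatives, with adjusted p = 0.0724 and 0.136 without the second or the third day 1 library and 0.0569, 0.0816 and 0.104 without the first, second or the third day 5 library, at log2 differences between -0.35 and -0.28 in these 5 fits. The day 10 call ended in 10 of 16, among them the removal of any of the 6 libraries compared, where the log2 differences lay between -0.33 and -0.18 and the adjusted p between 0.0685 and 0.417. Within lane 6, the only lane that held rotenone libraries of both day 5 and day 1, the day 5 minus day 1 difference of mir-87 was -0.39 on the log2 scale, against -0.33 in the fit of all lanes. Within lane 4, the only one with 2-deoxyglucose libraries of both day 10 and day 5, the difference was -0.89. Within lane 2, the only one with 2-deoxyglucose libraries of both day 5 and day 1, it was -0.29, opposite in sign to the 0.05 of the fit. The same-lane differences of day 10 minus day 5 in rotenone worms (0.14, lane 1) and of day 20 minus day 10 in rotenone (0.12 and 0.02, lanes 2 and 3) and 2-deoxyglucose worms (0.27 and 0.19, lanes 4 and 5) were positive, as in the fit. No lane held libraries of both day 10 and day 1, or of both day 20 and day 1, for a single compound.

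For mir-233 the called changes were rises and all involved day 20. In rotenone worms, mir-233 rose at day 20 by a log2 difference of 0.43 ± 0.14 over day 1 (fold 1.35, 95% interval 1.10 to 1.66, edgeR adjusted p = 0.0104) and of 0.41 ± 0.15 over day 10 (fold 1.33, edgeR adjusted p = 0.0246). In 2-deoxyglucose worms it rose at day 20 by 0.34 ± 0.15 over day 1 (fold 1.27, 95% interval 1.03 to 1.57, edgeR adjusted p = 0.0456). All 3 comparisons were without overlap of the libraries, the last by a margin of 132 against 131 CPM. Of all 141 hairpins, 63.8%, 41.1% and 62.4% were called in these comparisons, in the order given, so a called change was common there. By the absolute size of its log2 difference mir-233 stood at positions 95, 83 and 103 of 141. In 2-deoxyglucose worms the difference of day 20 from day 10 was also 0.34 ± 0.15, but with an adjusted p of 0.0710, and it passed the threshold with total counts (0.47, adjusted p = 0.00667) and with DESeq2's size factors (0.41, adjusted p = 0.0132). The same-lane differences of day 20 minus day 10 were 0.47 (lane 2) and 0.43 (lane 3) for rotenone and 0.51 (lane 4) and 0.18 (lane 5) for 2-deoxyglucose.

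The rise over day 1 in rotenone worms lost its call with total counts (0.25, adjusted p = 0.0777), with lane as a factor (0.46, adjusted p = 0.0503) and without the first day 1 library (0.40, adjusted p = 0.0562) or the second day 20 library (0.34, adjusted p = 0.0820). The rise over day 10 in rotenone worms lost it in 6 of 15 alternatives, which were no filter (0.39, adjusted p = 0.0991), only the groups compared (0.26, adjusted p = 0.131), the fit without the 6 day 5 libraries (0.27, adjusted p = 0.0870), and those without the first or second day 10 library (0.31 and 0.22, adjusted p = 0.202 and 0.378) or the second day 20 library (0.39, adjusted p = 0.0789). In 2-deoxyglucose worms the rise over day 1 lost its call with total counts (0.25, adjusted p = 0.0994), without the second or the third day 1 library (0.33 and 0.34, adjusted p = 0.110 and 0.114) and without the first day 20 library (0.30, adjusted p = 0.122). Its value without the second day 20 library was 0.57.

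Before day 20 no age difference of mir-233 was called. Against day 1, the log2 difference was -0.11 ± 0.13 on day 5 (adjusted p = 0.504) and 0.02 ± 0.13 on day 10 (95% interval -0.25 to 0.30, adjusted p = 0.881) in rotenone worms, and 0.22 ± 0.13 on day 5 (adjusted p = 0.193) and 0.01 ± 0.13 on day 10 (95% interval -0.27 to 0.28, adjusted p = 0.968) in 2-deoxyglucose worms. The last 3 of these 4 values turned in sign with total counts, and the first passed the threshold there (-0.41, adjusted p = 0.00499). The 2-deoxyglucose difference of day 5 from day 1 also passed it, as a rise, with lane as a factor (0.39, adjusted p = 0.0356) and without the first 2-deoxyglucose day 1 library (0.39, adjusted p = 0.0230). Day 10 minus day 5 gave 0.13 ± 0.13 in rotenone worms (adjusted p = 0.467) and -0.21 ± 0.14 in 2-deoxyglucose worms (adjusted p = 0.240).

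The comparison of rotenone with 2-deoxyglucose worms at the same age asks whether the level of the family differs between them. A difference passed the threshold for mir-87 at day 5 only. The levels there were 162, 158 and 154 CPM in rotenone worms, against 171, 226 and 238 CPM in 2-deoxyglucose worms. The groups did not overlap, and the log2 difference was -0.41 ± 0.13 (fold 0.751, 95% interval 0.622 to 0.906, edgeR adjusted p = 0.0474). At that age 9.93% of hairpins were called, 12 higher and 2 lower in rotenone worms, and mir-87 was one of the 2 lower ones. The call ended in 9 of 16 alternatives, with an adjusted p of 0.355 when only the day 5 libraries were fitted, 0.0638 with lane as a factor and 0.0566 with limma-voom. It also ended without any of the 3 rotenone day 5 libraries (-0.43, -0.41 and -0.35, adjusted p = 0.0609, 0.104 and 0.226) or without the second or the third 2-deoxyglucose day 5 library (-0.37 and -0.31, adjusted p = 0.143 and 0.225). At none of the 4 ages did the compounds share a lane, so within-lane values cannot be had and lane and compound cannot be told apart within an age.

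At the other ages the rotenone minus 2-deoxyglucose differences of mir-87 were -0.03 ± 0.13 on day 1 (adjusted p = 0.930, 11.3% of hairpins called), 0.21 ± 0.13 on day 10 (adjusted p = 0.343, 5.67% called) and 0.09 ± 0.16 on day 20 (adjusted p = 0.837, 0.709% called). The sign on day 20 turned with total counts and with DESeq2's size factors, and the sign on day 1 turned without the first 2-deoxyglucose day 1 library (0.04). Averaged over the 4 ages the difference was -0.04 ± 0.07 (95% interval -0.18 to 0.11, edgeR adjusted p = 0.815), while 10.6% of hairpins were called. For mir-233 the differences were 0.13 ± 0.13, -0.20 ± 0.13, 0.14 ± 0.13 and 0.22 ± 0.16 on days 1, 5, 10 and 20, with adjusted p = 0.632, 0.432, 0.519 and 0.493. Averaged over the ages mir-233 differed by 0.07 ± 0.07 (95% interval -0.07 to 0.22, edgeR adjusted p = 0.582). On day 20 both rotenone libraries of mir-233, at 159 and 166 CPM, nevertheless stood above both 2-deoxyglucose libraries, at 147 and 132 CPM, and so did those of mir-87, at 160 and 163 CPM against 154 and 148 CPM. Without the second 2-deoxyglucose day 20 library the signs turned, to -0.21 for mir-87 and -0.14 for mir-233.

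**Figure D2:**
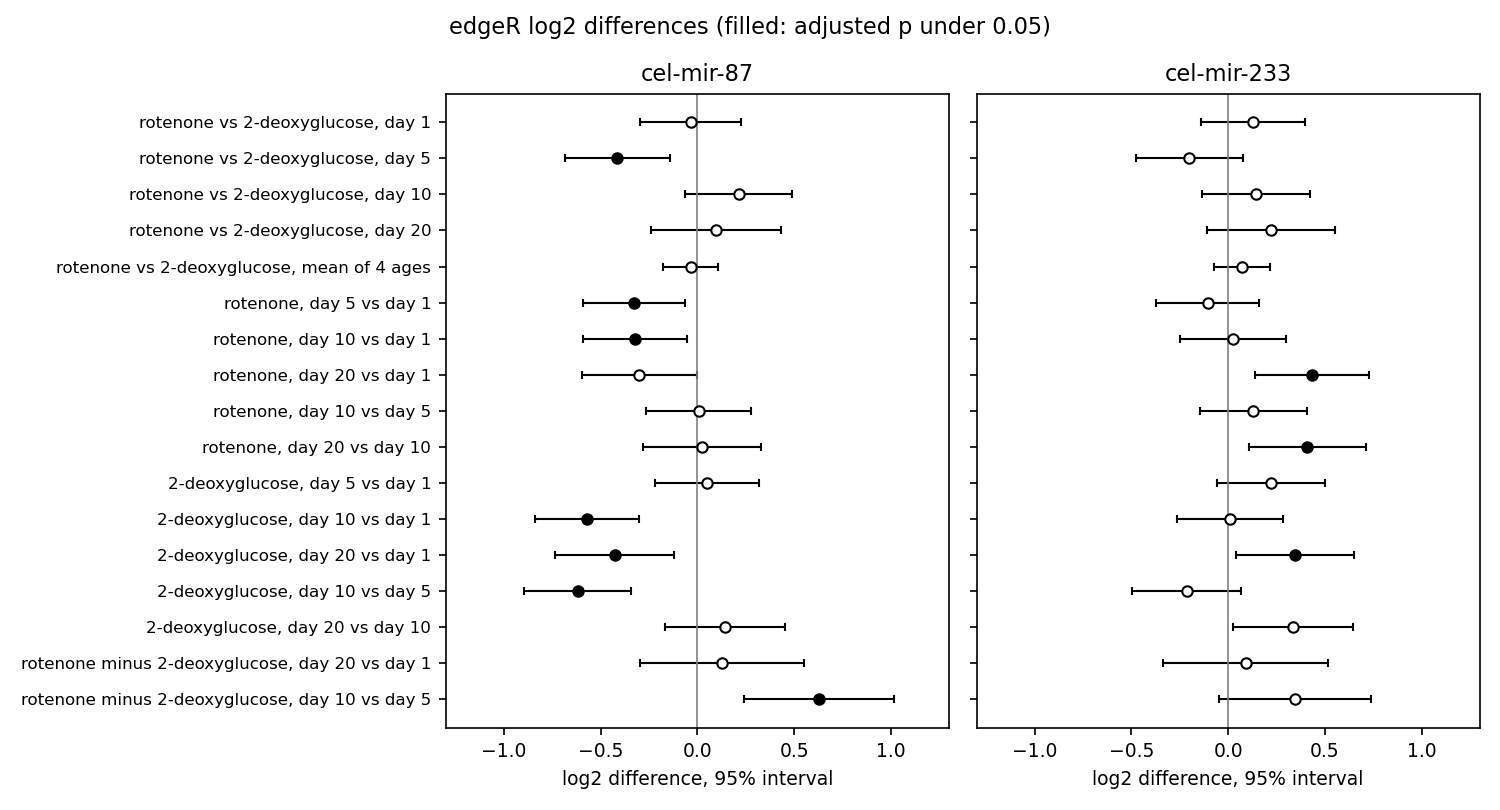
log2 differences of cel-mir-87 (left) and cel-mir-233 (right) in the 17 comparisons, one per line, from edgeR's quasi-likelihood fit of all 22 libraries; points are estimates, whiskers 95% intervals, and filled points have an adjusted p under 0.05. The filled mir-87 points lie below 0 except for the difference of differences in the bottom line, at 0.63, and the filled mir-233 points all lie above 0, between 0.34 and 0.43.

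The time course of mir-87 between days 5 and 10 differed between the compounds. The log2 difference of day 10 minus day 5 was 0.01 ± 0.13 in rotenone worms and -0.62 ± 0.13 in 2-deoxyglucose worms, and the difference of these differences was 0.63 ± 0.19 (95% interval 0.24 to 1.01, edgeR adjusted p = 0.0304), where 15.6% of hairpins were called. Its sign was kept in all 22 alternatives, between 0.53 and 0.91, and its call in 11 of them. The call ended with lane as a factor (0.91, adjusted p = 0.0597), when only the 4 groups were fitted (0.72, adjusted p = 0.0955), with no filter (0.71, adjusted p = 0.0635) and without any of 8 single libraries. Those were the second or the third rotenone day 5 library (0.63 and 0.58, adjusted p = 0.0770 and 0.0844), the second or the third 2-deoxyglucose day 5 library (0.58 and 0.53, adjusted p = 0.0612 and 0.0746), the first or second rotenone day 10 library (0.67 and 0.77, adjusted p = 0.167 and 0.0811) and the first or second 2-deoxyglucose day 10 library (0.64 and 0.65, adjusted p = 0.109 and 0.113). For mir-233 the same quantity was 0.34 ± 0.19 (adjusted p = 0.287). Over the whole span, day 20 against day 1, the difference of differences was 0.13 ± 0.20 for mir-87 (adjusted p = 0.855) and 0.09 ± 0.21 for mir-233 (adjusted p = 0.941), with 3.55% of hairpins called, and both signs turned with DESeq2's size factors.

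Within each library, the balance of the family moved from mir-87 towards mir-233 with age. The share of mir-87 in the summed counts of both hairpins does not depend on how libraries are scaled, and it is given as a description with exact Clopper-Pearson intervals that cover counting error only. Ligation and amplification preferences of a hairpin also enter the share, so only its movement between groups is read. In rotenone worms the share was 59.2%, 63.0% and 64.4% on day 1, 61.5%, 55.1% and 59.8% on day 5, 56.7%, 56.2% and 56.7% on day 10, and 50.1% and 49.5% on day 20. In 2-deoxyglucose worms it was 62.8%, 64.1% and 68.4% on day 1, 57.1%, 64.0% and 64.8% on day 5, 55.4%, 52.7% and 57.4% on day 10, and 51.1% and 52.9% on day 20. Every day 20 library lay below every day 1 library under both compounds.

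The counts behind these shares show the movement directly. The second rotenone day 20 library held 220 counts of mir-87 and 224 of mir-233, a share of 49.5% with a 95% interval of 44.8% to 54.3%, and the third rotenone day 1 library held 482 and 267, a share of 64.4% with an interval of 60.8% to 67.8%. The group means of the share in rotenone worms were 62.2 ± 2.69%, 58.8 ± 3.35%, 56.5 ± 0.300% and 49.8 ± 0.413% on days 1, 5, 10 and 20 (SD, n = 3, 3, 3 and 2). In 2-deoxyglucose worms they were 65.1 ± 2.89%, 62.0 ± 4.24%, 55.2 ± 2.38% and 52.0 ± 1.27%. Neighbouring ages overlapped except rotenone day 20 against day 10, and the 2-deoxyglucose groups of days 20 and 10 overlapped by 1 library each, at 52.9% and 52.7%. At each age the libraries of the compounds overlapped, apart from day 20, where rotenone stood lower in both of its libraries.

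**Figure D3:**
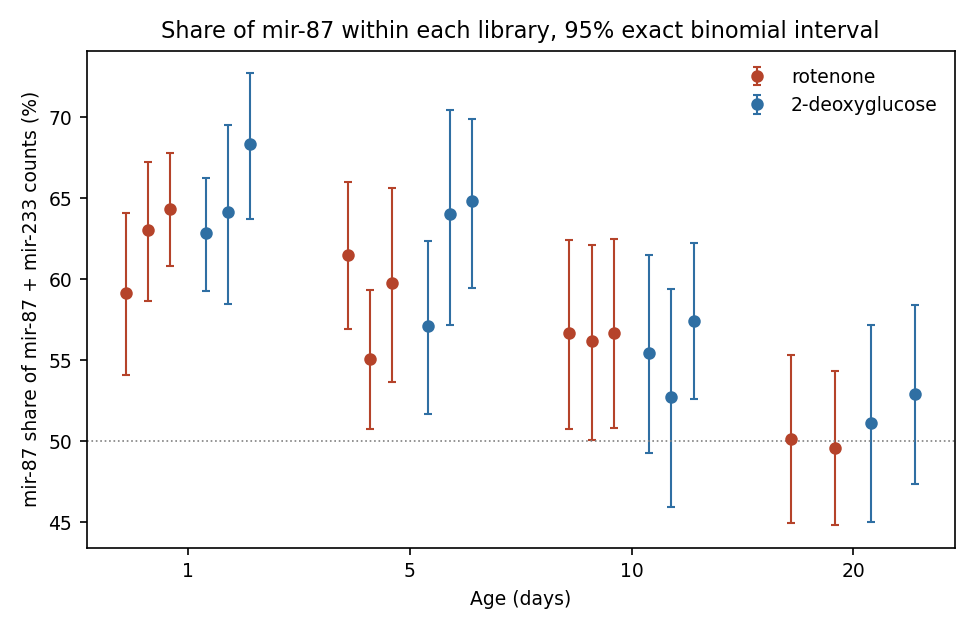
Share of cel-mir-87 in the summed counts of cel-mir-87 and cel-mir-233 (vertical axis, percent, not starting at 0) in each of the 22 libraries, by age in days; points are libraries and whiskers 95% exact binomial intervals, with rotenone left of 2-deoxyglucose. The day 20 libraries sit between 49.5% and 52.9%, below all day 1 libraries, which sit between 59.2% and 68.4%, and the dotted line marks equal counts.

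The summed level of mir-87 and mir-233 showed no steady course with age. The mean of the summed CPM was 319, 269, 281 and 324 on days 1, 5, 10 and 20 in rotenone worms, and 312, 340, 247 and 291 in 2-deoxyglucose worms. On day 20 the sum was thus close to that of day 1 under either compound, while the mean of mir-87 was lower and that of mir-233 higher. This closeness is relative to the TMM scaling, whose library factors were 1.06 to 1.17 on day 1 and 0.942 to 1.06 on day 20. The lowest group of the sum was 2-deoxyglucose day 10, whose libraries lay between 231 and 265 CPM. The highest was 2-deoxyglucose day 5, between 299 and 367 CPM.

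Published classifications also place mir-356 with this seed family, so the hairpins cel-mir-356a and cel-mir-356b were looked up by name. They overlap on opposite strands of chromosome III, from 7860147 to 7860256 on the plus strand and from 7860167 to 7860234 on the minus strand, and the use of strand in the counting is not given in the sources used here, so their reads cannot be told apart. Both were scarce, with 8 to 37 counts per library for mir-356a (10.3 to 23.6 CPM) and 10 to 42 for mir-356b (10.8 to 22.2 CPM). Neither was called in any of the 17 comparisons. The lowest adjusted p values were those of mir-356a in rotenone worms, with log2 differences of 0.66 ± 0.28 for day 5 (adjusted p = 0.0563) and 0.70 ± 0.32 for day 20 (adjusted p = 0.0580), each against day 1.

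The profiles of the members over the 8 groups were unlike each other. Pearson's r between the group means of log2 CPM of mir-87 and mir-233 was -0.09 over the 8 groups, which put mir-233 at position 76 of the 140 other hairpins in likeness to mir-87. The groups share libraries and scaling, so these correlations are descriptions. The hairpin most like mir-87 was mir-57, known in the worm for its link to the posterior Hox gene nob-1, with r = 0.89 and Spearman's rho = 0.98. Its levels were far higher, from 18287 ± 1793 CPM in 2-deoxyglucose day 10 worms to 26000.5 ± 6160 CPM in 2-deoxyglucose day 5 worms (SD, n = 3 each), the same lowest and highest groups as those of mir-87. Next came mir-46 (r = 0.87) and mir-50 (r = 0.86), and over the 22 single libraries in place of the group means none of these 3 stayed among the first 3.

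The hairpins most like mir-233 were mir-4807 (r = 0.91), mir-2220 (r = 0.88) and mir-45 (r = 0.85). Of these, mir-4807 and mir-2220 were scarce, at 4.65 and 2.83 CPM on average, and were at 0 in some libraries. mir-4807 was at 25.5 and 26.6 CPM in rotenone worms on day 20 and at 15.5 and 16.3 CPM in 2-deoxyglucose worms on day 20, against at most 4.74 CPM in any younger library. mir-45 averaged 24703 ± 3752 CPM in rotenone worms on day 20 and 9384 ± 431 CPM on day 1 (SD, n = 2 and 3), and 21207 ± 242 CPM in 2-deoxyglucose worms on day 20 and 6799 ± 1200 CPM on day 1. Its counts were within 2.71% of those of mir-44 in every library, so the reads of mir-44 and mir-45 cannot be told apart. Over the 22 libraries 1 of the 3 stayed among the first 3.

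**Figure D4:**
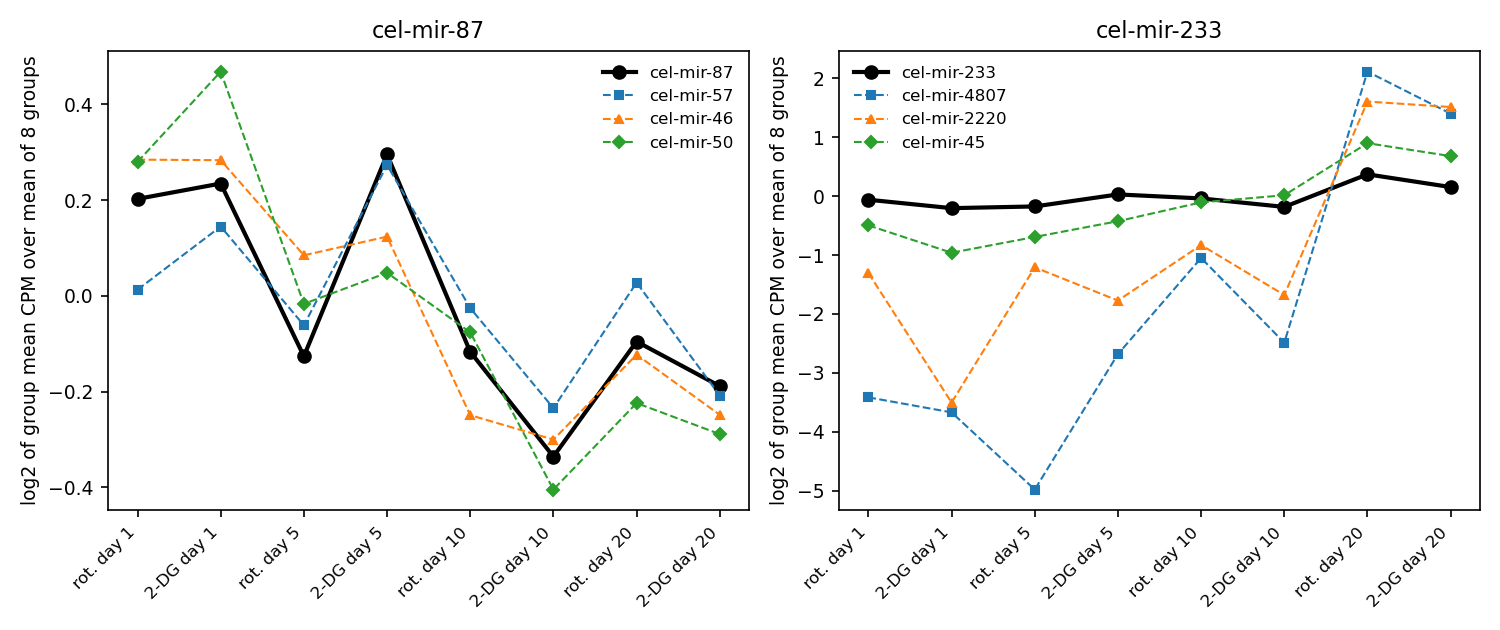
Mean CPM in each of the 8 groups, as the log2 of its ratio to the hairpin's mean over the 8 group means. Shown are cel-mir-87 (left) and cel-mir-233 (right), each with the 3 hairpins most like it by Pearson's r over group means of log2 CPM. The vertical scales of the panels differ, and groups run by age with rotenone (rot.) left of 2-deoxyglucose (2-DG). The mir-87 line shares its lowest group (2-DG day 10) and its highest (2-DG day 5) with mir-57, and all 4 lines on the right are highest in the day 20 groups.

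Since mir-233 is linked to stress responses, a list of 18 hairpins with published roles in heat, oxidative, pathogen or protein-folding stress was followed beside the family, all 18 of them tested. A called change was a common outcome over all 141 hairpins in the age comparisons, so their counts are given beside those of the list. In rotenone worms 8 of 18 were called higher and 1 lower on day 5 against day 1 (over all hairpins 35 and 29), with a list median of 0.43 on the log2 scale and a median of 0.01 over all hairpins. On day 10 it was 9 and 1 (all hairpins 41 and 37; medians 0.32 and 0.02), and on day 20 it was 6 and 7 (48 and 42; 0.20 and -0.03). In 2-deoxyglucose worms 7 were called higher and 1 lower on day 5 (all hairpins 32 and 31; medians 0.17 and 0.02), 6 and 5 on day 10 (44 and 49; -0.03 and -0.06), and 6 and 7 on day 20 (40 and 48; -0.14 and -0.09).

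Between the later ages the list was called in both directions as well. Day 20 against day 10 gave 4 higher and 8 lower in rotenone worms (all hairpins 32 and 26; medians -0.12 and 0.08) and 5 and 7 in 2-deoxyglucose worms (30 and 35; -0.13 and 0.02). Day 10 against day 5 gave 4 higher and 2 lower in rotenone worms (22 and 27; 0.22 and -0.04) and 3 and 6 in 2-deoxyglucose worms (22 and 22; -0.11 and -0.03).

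Where mir-233 rose at day 20, the largest called changes of the list were of far greater size. In rotenone worms on day 20 against day 1 these were mir-239b (log2 difference 4.61 ± 0.24) and mir-239a (2.68 ± 0.16), hairpins known to affect stress resistance and lifespan, and mir-34 (2.78 ± 0.14), a conserved microRNA linked to ageing and stress. In 2-deoxyglucose worms they were mir-239b (4.00 ± 0.23), mir-251 (3.03 ± 0.54) and mir-239a (2.76 ± 0.16). Between day 20 and day 10 in rotenone worms mir-239b rose further (2.45 ± 0.22), while mir-70 (-2.06 ± 0.15) and the intestinal mir-60 (-1.44 ± 0.41) fell. Where mir-87 fell between day 10 and day 1 in 2-deoxyglucose worms, the largest were mir-34 (1.99 ± 0.13), mir-239a (1.86 ± 0.15) and mir-251 (1.85 ± 0.57), all rises. The adjusted p of each of these was at most 0.00764 by edgeR's test.

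Between the compounds, calls in the stress list came mostly at day 10, where 4 of 18 were higher and 1 lower in rotenone worms, against 6 and 2 of all 141 hairpins (5.67% called). The counts were 0 higher and 1 lower on day 1 (all hairpins 13 and 3), 0 and 0 on day 5 (12 and 2), 0 and 0 on day 20 (0 and 1), and 2 and 0 for the mean of the ages (14 and 1). In the difference of the day 10 minus day 5 changes, where mir-87 was called, 3 of 18 were called and all were positive, namely mir-65 (0.70 ± 0.21), mir-64 (0.68 ± 0.20) and mir-80 (0.49 ± 0.15), while 15.6% of all hairpins were called, 5 of them positive and 17 negative. The difference of the day 20 minus day 1 changes called 1 of the 18.

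Markers of eggs and of single tissues moved with age in the same libraries. The mir-35 to mir-42 hairpins were followed as published markers of eggs and embryos carried inside the worms, and all 8 were detected. Whether they stand for eggs and embryos at every age, day 20 among them, was not tested. Their summed level lay at 136816 to 187694, 183008 to 277184, 183579 to 250796 and 268760 to 316468 CPM on days 1, 5, 10 and 20 in rotenone worms, and at 108658 to 138167, 151084 to 164918, 238152 to 303911 and 239163 to 258313 CPM in 2-deoxyglucose worms. Between days 20 and 1, where mir-233 rose, 7 of 8 were called higher in rotenone worms and 8 of 8 in 2-deoxyglucose worms, against 48 and 40 of all 141 hairpins. Between days 10 and 5, where mir-87 fell in 2-deoxyglucose worms, 3 of 8 were called higher in rotenone worms and 7 of 8 in 2-deoxyglucose worms, where 22 of all 141 hairpins were called higher under each compound. In the difference of these changes 6 of 8 were called lower, against 17 of 141. In rotenone worms the mean of the summed level was 235177 CPM on day 5 and 218034 CPM on day 10, with overlapping libraries. The median log2 difference of the 8 hairpins was 0.33 there, so the sum did not share the direction of the calls. At day 5, where mir-87 was lower in rotenone than in 2-deoxyglucose worms, 4 of 8 were called higher in rotenone worms, against 12 of 141. The part of eggs and embryos in the levels of mir-87 and mir-233 was not tested.

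The muscle marker mir-1 was lower on day 20, at 139 to 194 CPM in rotenone worms and 154 to 199 CPM in 2-deoxyglucose worms, against 599 to 703 and 448 to 656 CPM on day 1. The intestinal marker mir-60 was at 777 to 880 and 603 to 639 CPM on day 20, against 1739 to 1907 and 2013 to 2230 CPM on day 1, in the same order of compounds. The sum of the neuronal markers lsy-6, mir-124, mir-790 and mir-791 was at 229 to 271 and 176 to 291 CPM on day 20, against 192 to 227 and 201 to 278 CPM on day 1, so its ranges overlapped between these ages in 2-deoxyglucose worms and did not meet in rotenone worms. Of these 4 markers, 0 were called higher and 1 lower between days 20 and 1 in rotenone worms (median log2 difference -0.11), so the higher sum there was not shared by their median. The marker of glia and epidermis, mir-228, was at 118903 to 136125 CPM in rotenone worms and 101087 to 107737 CPM in 2-deoxyglucose worms on day 20, against 74106 to 80055 and 87270 to 107398 CPM on day 1. Between days 10 and 5, mir-228 had a log2 difference of -0.05 in rotenone worms and was called lower in 2-deoxyglucose worms (-0.53), at 78556 to 82478 CPM on day 10 against 93724 to 154432 CPM on day 5, as mir-87 was. The difference between the compounds was 0.47 for mir-228 and was not called. Between the same days, mir-60 was at -0.35 in rotenone and -0.58 in 2-deoxyglucose worms, neither called. In the same order mir-1 was at -0.63, called lower, and -0.35, not called. The median of the neuronal markers was at -0.42 and -0.16. In rotenone worms mir-228 was called higher on days 5 and 20 against day 1 (0.41 and 0.73). There mir-87 was lower, called on day 5 (-0.33, lost in 8 of 16 alternatives) and not called on day 20 (-0.30). How far the makeup of the worms enters the levels of the family was not tested.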

How the data were processed

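The members and the lists followed beside them were chosen with earlier results of these data known. Per the labels' protocols, a TruSeq kit for small RNA was used for library preparation. The submitters' processing notes name BWA 0.7.12-r1039, SAMtools 1.3.1-9, Trimmomatic 0.36 and CASAVA 1.8.4, without role or order. Not given in the sources used here were the build, the use of strand and the handling of reads that match several hairpins. The table the authors deposited holds unscaled counts of 250 hairpins in 22 libraries, with 0 columns of other samples. Reads cut short or assigned among similar hairpins would alter these counts before any step taken here.

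Hairpins were kept by filterByExpr in edgeR 4.0.16 (R 4.3.3) with a minimum count of 10 and a minimum total of 15, which left 141. TMM scaling came before 1 robust fit over the 8 groups. The 17 comparisons used edgeR's quasi-likelihood test, with p-values adjusted after Benjamini and Hochberg over all 141 hairpins and called at 0.05. Standard errors are the log2 difference divided by the square root of F, and intervals cover 95%. Totals of 664900 to 2233973 made 1 count worth 0.448 to 1.50 CPM by the raw totals. The labels mention no molecular identifiers, and PCR copies are not independent molecules, so the share intervals cover counting error only. Library pairs within a group differed by at least 12.1 chi-square units per degree of freedom, so none looked like a repeated deposit. Replicate numbers only name libraries, in record order, and mark no pairs. Lane codes (7 lanes) come from the labels. Both members were named in every comparison, with the 3 hairpins most like each by Pearson's r over the 8 group means of log2 CPM (prior count 2). At most 3 hairpins of the stress list were named per comparison. Alternatives used other scalings, no filter, DESeq2 1.42.0, limma 3.58.1 (voom), lane as a factor, fewer libraries and each library left out; the fit was tested on simulated data. Gene models were those of WBcel235.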

Additional observations from a re-analysis of the deposited data

Results flagged for a closer look

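One result differed between the compounds by a test of the difference itself. The day 10 minus day 5 change of mir-87 was 0.01 ± 0.13 on the log2 scale in rotenone worms and -0.62 ± 0.13 in 2-deoxyglucose worms, and the difference of these changes was 0.63 ± 0.19 (edgeR quasi-likelihood test, adjusted p = 0.0304, 3 libraries in each of the 4 groups). Its sign was kept in all 22 alternatives and its call in 11, and the call ended with lane as a factor (adjusted p = 0.0597), with only the 4 groups fitted (0.0955), with no filter (0.0635) and without any of 8 single libraries (0.0612 to 0.167). It rests on 170, 147 and 161 CPM at day 10 and 162, 158 and 154 CPM at day 5 in rotenone worms, and on 128, 130 and 152 CPM at day 10 and 171, 226 and 238 CPM at day 5 in 2-deoxyglucose worms. Of all 141 hairpins, 22 (15.6%) were called in this difference of changes, 5 positive and 17 negative. In the same libraries 6 of the 8 egg and embryo hairpins were called in the direction opposite to mir-87. Between days 10 and 5 the glia and epidermis marker mir-228 moved as mir-87 did, at log2 differences of -0.05 in rotenone and -0.53 in 2-deoxyglucose worms. The second was called, but the difference between the compounds (0.47) was not. In the same order of compounds, the intestinal mir-60 was at -0.35 and -0.58, neither called. The muscle marker mir-1 was at -0.63, called lower, and -0.35, not called. The median of the neuronal markers was at -0.42 and -0.16. In rotenone worms mir-228 was called higher on days 5 and 20 against day 1 (0.41 and 0.73). There mir-87 was lower, called on day 5 (-0.33, lost in 8 of 16 alternatives) and not called on day 20 (-0.30). The part of eggs, embryos or any of these tissues in the mir-87 values was not tested. Groups of 2 or 3 libraries are too small for a test of single libraries that stand apart, so none was made.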

How the results depend on the processing

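Over the 34 differences tested, 582 alternative values were computed: 462 kept direction and side of the threshold, 62 lost the call, 12 gained it and 46 turned in sign, and 11 of the 34 differences were unmoved in both respects under each alternative run. The causes of the exceptions below were not tested. No paired analysis was possible because the labels give no replicate numbers that pair libraries across groups. Leaving out the libraries numbered 1 of both day 5 groups, and fitting without robust estimation, changed no call and no sign. Groups of 2 or 3 libraries and 77 to 482 counts per library limit what can be seen. Scaling moved the median log2 difference of all hairpins by over 0.1 in some comparisons: with total counts, for example, it was -0.29 against -0.06 with TMM between 2-deoxyglucose days 10 and 1, and -0.28 against 0.01 between rotenone days 5 and 1. With DESeq2's size factors it was 0.04 against -0.09 between 2-deoxyglucose days 20 and 1, and 0.13 there with TMM without mir-35 to mir-42 and the 5 hairpins of highest level. Differences of single hairpins are relative to the scaling. All values below are log2 differences.

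With DESeq2's size factors, the sign of mir-87 turned for rotenone against 2-deoxyglucose on day 20 (-0.050), for rotenone day 20 against day 10 (-0.0010) and for the difference between compounds of the day 20 minus day 1 changes (-0.025), the last also for mir-233 (-0.069). The mir-87 call for 2-deoxyglucose day 20 against day 1 was lost (-0.31), and mir-233 for 2-deoxyglucose day 20 against day 10 gained one (0.41). DESeq2's own test did the same to these results, at -0.049, -0.00042, -0.026, -0.058, -0.31 and 0.40.

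With total counts, mir-87 turned in sign for rotenone against 2-deoxyglucose on day 20 (-0.020) and for 2-deoxyglucose day 5 against day 1 (-0.20), and mir-233 for rotenone day 10 (-0.15), 2-deoxyglucose day 5 (-0.013) and 2-deoxyglucose day 10 (-0.22), each against day 1. Calls of mir-233 were lost for day 20 against day 1 in rotenone (0.25) and in 2-deoxyglucose worms (0.25), and gained for rotenone day 5 against day 1 (-0.41) and 2-deoxyglucose day 20 against day 10 (0.47). mir-87 gained one for rotenone day 20 against day 1 (-0.48).

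With TMM factors from the other hairpins, without mir-35 to mir-42 and the 5 hairpins of highest level, mir-87 lost its calls against day 1 for rotenone day 5 (-0.31), rotenone day 10 (-0.18) and 2-deoxyglucose day 20 (-0.22), and mir-233 gained one for 2-deoxyglucose day 20 against day 10 (0.46). With no filter, mir-87 lost its calls for rotenone against 2-deoxyglucose on day 5 (-0.49), for rotenone day 5 (-0.36), rotenone day 10 (-0.33) and 2-deoxyglucose day 20 (-0.31) against day 1, and for the difference of the day 10 minus day 5 changes (0.71). It turned in sign for rotenone against 2-deoxyglucose on day 20 (-0.040), and the difference of the day 20 minus day 1 changes turned for mir-87 (-0.022) and mir-233 (-0.063). For day 20 against day 10, mir-233 lost its call in rotenone worms (0.39) and gained one in 2-deoxyglucose worms (0.46).

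With lane as a factor, mir-87 lost its calls for rotenone against 2-deoxyglucose on day 5 (-0.51), for rotenone day 5 (-0.30) and day 10 (-0.14) against day 1, and for the difference of the day 10 minus day 5 changes (0.91). mir-233 lost one for rotenone day 20 against day 1 (0.46), gained one for 2-deoxyglucose day 5 against day 1 (0.39) and turned in sign for the difference of the day 20 minus day 1 changes (-0.044). limma-voom lost the call of mir-87 for rotenone against 2-deoxyglucose on day 5 (-0.39).

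With only the groups compared in the fit, mir-87 lost its calls for rotenone against 2-deoxyglucose on day 5 (-0.55) and for the difference of the day 10 minus day 5 changes (0.72), gained one for rotenone day 20 against day 1 (-0.36) and turned in sign for rotenone against 2-deoxyglucose on day 20 (-0.071) and for rotenone day 20 against day 10 (-0.12). mir-233 lost its call for rotenone day 20 against day 10 (0.26). Without the 6 day 5 libraries, that call was lost as well (0.27), mir-87 lost one for rotenone day 10 against day 1 (-0.18), gained one for rotenone day 20 against day 1 (-0.29) and turned in sign for rotenone day 20 against day 10 (-0.11).

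With each library left out in turn, rotenone minus 2-deoxyglucose of mir-87 ranged from -0.16 to 0.036 on day 1, from -0.55 to -0.31 on day 5 and from -0.21 to 0.035 on day 20, and that of mir-233 from -0.14 to 0.18 on day 20 and from -0.085 to 0.11 over the mean of the ages. Against day 1, mir-87 ranged from -0.49 to -0.28 for rotenone day 5, from -0.33 to -0.18 for rotenone day 10, from -0.14 to 0.19 for 2-deoxyglucose day 5 and from -0.46 to -0.26 for 2-deoxyglucose day 20. mir-233 ranged from -0.0028 to 0.16 for rotenone day 10, from 0.34 to 0.47 for rotenone day 20, from 0.056 to 0.39 for 2-deoxyglucose day 5, from -0.050 to 0.17 for 2-deoxyglucose day 10 and from 0.30 to 0.57 for 2-deoxyglucose day 20. Day 10 minus day 5 of mir-87 in 2-deoxyglucose worms ranged from -0.76 to -0.48. Day 20 minus day 10 ranged from -0.17 to 0.11 for mir-87 in rotenone worms, and for mir-233 from 0.22 to 0.52 in rotenone and from 0.19 to 0.45 in 2-deoxyglucose worms. The difference between compounds of the day 20 minus day 1 changes ranged from -0.15 to 0.18 for mir-87 and from -0.24 to 0.071 for mir-233, and that of the day 10 minus day 5 changes of mir-87 from 0.53 to 0.77. Leaving out a day 20 library left a single one, assumed to vary like the other groups. The within-library log2 ratio of mir-87 to mir-233 moved by less than 1 SD in each group with a pseudocount of 1 in place of 0.5 and with each library left out. Of the 3 hairpins most like each member, 0 for mir-87 and 1 for mir-233 were among the first 3 over the 22 libraries.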
